A study of Mus musculus with 10 samples.

Results

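Transcripts typical of natural killer (NK) cells and T cells were followed through 10 RNA libraries made from macrophages sorted out of mouse mammary tumours. They are the 10 genes Nkg7, Klrk1, Klrd1, Gzma, Gzmb, Prf1, Ncr1, Cd3e, Cd3g and Il2rb, taken by their symbols from tables of 21938 genes, and all 10 were found once in every library's table. PyMT tumour cells, whose oncogene is the polyoma virus middle T antigen expressed in the mammary gland, had been injected into 2 mammary glands of C57BL/6 mice, and the tumour-associated macrophages were sorted by flow cytometry 5 weeks later. The Mertk KO group (4 libraries) came from mice labelled as lacking Mertk in macrophages, which bore wild-type tumours. The Ptdss1 knockdown group (3 libraries) came from wild-type mice bearing tumour cells in which Ptdss1 was knocked down. The control group (3 libraries) came from wild-type mice bearing wild-type tumour cells. Mertk is a receptor by which macrophages take up dying cells, and Ptdss1 makes phosphatidylserine, the lipid that marks a dying cell for uptake. The sources used here do not give the Cre driver of the knockout, the knockdown construct, the sort markers, or whether 1 library stands for 1 mouse. A p-value here therefore speaks only of the spread between libraries, part of which may be technical.

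NK cells and cytotoxic T cells kill target cells by releasing granules that hold the pore-forming protein perforin, encoded by Prf1, and serine proteases called granzymes, among them those encoded by Gzma and Gzmb. Nkg7 encodes a membrane protein of these granules. Klrk1 encodes NKG2D, an activating receptor for stress-induced ligands that signals through adaptors encoded by Hcst and Tyrobp, and Klrd1 encodes CD94, which pairs with the NKG2 proteins encoded by Klrc genes to read the nonclassical MHC molecule encoded by H2-T23. Ncr1 encodes NKp46, a receptor that defines NK cells and some innate lymphoid cells, and Il2rb encodes the receptor chain through which interleukins 2 and 15 act on NK and T cells. Cd3e and Cd3g encode chains of the CD3 complex that carries the T cell receptor to the surface. Neither the granule genes nor CD3 are typical of macrophages.

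The libraries held between 10292592 and 25815071 reads on genes, and between 6995 and 11523 genes with at least 10 reads. Control library 2, with 9066 such genes, and Ptdss1 knockdown library 1, with 6995, had the fewest. A bar of 10 reads is too low to measure how pure the sort was. All 12 of 12 macrophage markers, among them Csf1r, Adgre1, C1qa and Lyz2, had at least 10 reads in every library. Their summed level was 41789 to 84590 CPM (reads scaled to a common library total) in the Mertk KO libraries and 30423 to 50687 CPM in the Ptdss1 knockdown libraries, against 47279 to 61398 CPM in control. Mertk had log2 levels of 8.95 to 10.63 in Mertk KO and 9.26 to 10.97 in control, a fold change of -0.32 (SE 0.70, limma adjusted p = 1). As the deleted exons are not stated, a whole-gene value does not check the knockout label, and Ptdss1 was targeted in tumour cells, not in the cells sequenced. The 10 transcripts together reached at most 232 CPM in any library.

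Promoter sequences are shown for 5 of the 10 genes: Nkg7, Gzma, Gzmb and Cd3g, whose levels moved together across the libraries, and Klrk1, whose level did not move with them. Each is the RefSeq window of 300 bases on the GRCm38.p6 build, 250 before the transcription start and 50 from it onward, written 5′ to 3′ in the direction of the gene. Capitals mark 3 short motifs searched on both strands, AGGTGT (bound by T-box factors), TGTGGT (bound by RUNX factors) and AGGAAG (bound by ETS factors), and where a motif lies on the other strand its reverse complement is in capitals. No capitals of different motifs overlap.
Nkg7, chr7:43436888-43437187, plus strand: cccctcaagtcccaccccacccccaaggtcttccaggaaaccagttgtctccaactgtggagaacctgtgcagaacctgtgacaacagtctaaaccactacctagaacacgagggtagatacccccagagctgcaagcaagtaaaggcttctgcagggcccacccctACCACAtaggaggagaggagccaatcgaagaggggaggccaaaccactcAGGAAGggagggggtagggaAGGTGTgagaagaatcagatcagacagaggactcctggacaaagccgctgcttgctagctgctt
Gzma, chr13:113100932-113101231, minus strand: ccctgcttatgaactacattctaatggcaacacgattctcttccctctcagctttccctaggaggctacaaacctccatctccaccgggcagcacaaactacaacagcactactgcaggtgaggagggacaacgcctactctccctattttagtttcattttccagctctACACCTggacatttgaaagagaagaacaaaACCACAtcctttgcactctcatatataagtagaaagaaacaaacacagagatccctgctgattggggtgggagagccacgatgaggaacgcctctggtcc
Gzmb, chr14:56262285-56262584, minus strand: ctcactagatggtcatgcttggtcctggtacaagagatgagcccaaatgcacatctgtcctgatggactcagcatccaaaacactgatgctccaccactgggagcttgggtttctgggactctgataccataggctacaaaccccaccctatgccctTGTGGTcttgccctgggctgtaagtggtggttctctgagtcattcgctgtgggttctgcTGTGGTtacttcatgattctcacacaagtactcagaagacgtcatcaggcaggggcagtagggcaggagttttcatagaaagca
Cd3g, chr9:44980382-44980681, minus strand: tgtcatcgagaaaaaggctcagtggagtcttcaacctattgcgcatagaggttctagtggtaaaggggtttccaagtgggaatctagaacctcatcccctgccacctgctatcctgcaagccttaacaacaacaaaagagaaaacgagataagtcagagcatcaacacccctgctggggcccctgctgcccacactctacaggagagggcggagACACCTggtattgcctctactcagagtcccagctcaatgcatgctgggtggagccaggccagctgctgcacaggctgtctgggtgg
Klrk1, chr6:129623815-129624114, minus strand: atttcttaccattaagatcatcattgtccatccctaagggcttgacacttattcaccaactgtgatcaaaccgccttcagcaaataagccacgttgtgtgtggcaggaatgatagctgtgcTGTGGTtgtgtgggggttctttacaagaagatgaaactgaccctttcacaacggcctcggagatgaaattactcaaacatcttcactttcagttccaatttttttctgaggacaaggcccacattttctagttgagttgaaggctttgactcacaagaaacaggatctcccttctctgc

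Of the 8 genes with an entry in the promoter table, 5 held AGGTGT, against 13.7% of all 32851 mouse promoters in it. TGTGGT was in 6 of the 8, against 16.8% of all promoters, and AGGAAG was in 3 of the 8, against 35.4%. In the windows shown, Nkg7 had all 3 motifs, with AGGTGT 14 bases before the start. Gzma had AGGTGT and TGTGGT, Gzmb had TGTGGT at 2 places, Cd3g had AGGTGT only, and Klrk1 had TGTGGT only. These matches describe letters, not binding.

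The granule genes were read well in some macrophage libraries and at or near 0 in others of the same group. Nkg7 (chromosome 7, 43437073 to 43438249, plus strand, GRCm38) had 160, 374, 2 and 0 reads in Mertk KO and 12, 726 and 72 reads in Ptdss1 knockdown, against 1081, 393 and 670 reads in control. On the scale of log2(normalised reads + 1), on which all levels and fold changes were computed, these were 7.88, 8.26, 1.39 and 0 in Mertk KO and 3.51, 9.42 and 5.49 in Ptdss1 knockdown, against 9.78, 8.69 and 8.94 in control. All 4 Mertk KO libraries lay below every control library, 2 of them by little and 2 near zero, while Ptdss1 knockdown library 2 lay within the control range. The mean level was 4.38 ± 4.30 in Mertk KO (SD, n = 4) and 9.14 ± 0.57 in control (SD, n = 3), a log2 fold change of -4.75 (SE 2.07, 95% interval -9.10 to -0.41). That difference did not pass over all genes (limma, unadjusted p = 0.0337, adjusted p = 1), and the exact two-sided permutation test gave p = 0.143. It was -2.43 with library weights, -3.29 without Mertk KO library 4, -6.05 without Mertk KO library 2 and -4.98 without the 2 libraries of fewest genes, control 2 and Ptdss1 knockdown 1. In bulk RNA of this kind, the cells that gave the Nkg7 reads are not known. Fewer such cells in the sort and less Nkg7 RNA per cell cannot be told apart.

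Gzma (chromosome 13, 113093825 to 113100981, minus strand) had 101, 166, 0 and 0 reads in Mertk KO and 6, 1006 and 0 reads in Ptdss1 knockdown, against 2080, 0 and 270 reads in control. Every group held at least 1 library with 0 reads and at least 1 with over 100, so the groups overlapped over nearly their whole range. Gzmb (chromosome 14, 56258838 to 56262260, minus strand) had 218, 1, 1 and 0 reads in Mertk KO and 17, 494 and 38 reads in Ptdss1 knockdown, against 430, 0 and 57 reads in control. Here 1 Mertk KO library held nearly all of its group's reads, and the groups again overlapped. A listing of 0 reads allows up to 3 reads by counting error alone, and reads amplified by PCR are not independent molecules, so such limits cover counting error only.

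Neither granzyme differed between groups beyond the spread of its libraries. For Gzma, limma gave a log2 fold change of -2.54 (SE 2.79, adjusted p = 1) in Mertk KO against control and -1.95 (SE 2.99, adjusted p = 0.908) in Ptdss1 knockdown against control. For Gzmb the values were -2.11 (SE 2.36, adjusted p = 1) and 1.19 (SE 2.52, adjusted p = 0.943). The sizes rested on single libraries: leaving out control library 1 brought the Mertk KO difference to -0.24 for Gzma and -0.20 for Gzmb, and leaving out control library 2 brought them to -5.60 and -4.42.

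The perforin gene was read in few libraries. Prf1 (chromosome 10, 61297833 to 61304680, plus strand) had 0, 1, 0 and 0 reads in Mertk KO and 1, 76 and 1 reads in Ptdss1 knockdown, against 88, 1 and 6 reads in control. The 2 libraries with most Prf1, Ptdss1 knockdown 2 and control 1, were also the 2 with most Gzma and Gzmb. Mertk KO library 1, with 218 reads of Gzmb and 101 of Gzma, had no read of Prf1, and Mertk KO library 2, with 166 reads of Gzma, had 1. With at least 10 reads in 2 libraries only, Prf1 did not reach the 10 reads in 3 libraries asked of a tested gene, and the Mertk KO and control libraries with 1 read each cannot be ranked at this depth.

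**Figure D1:**
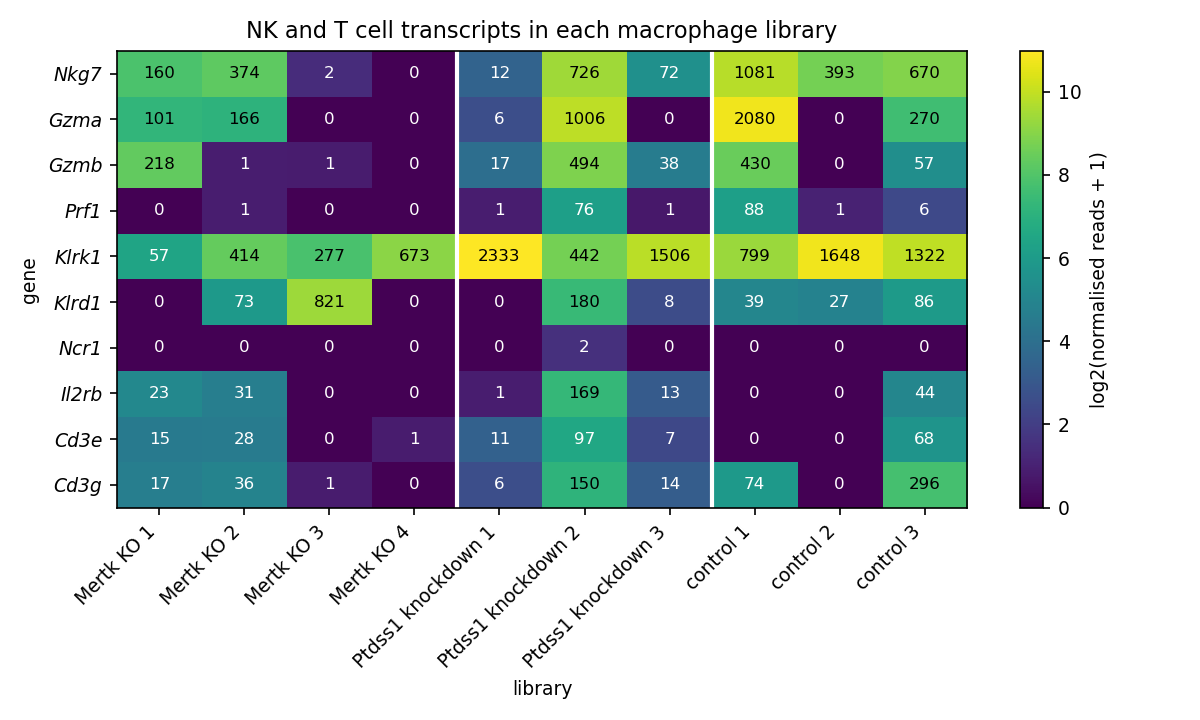
Reads of each of the 10 transcripts (rows) in each library (columns). The number in a cell is the read count, its colour is log2(normalised reads + 1), and white lines part the Mertk KO, Ptdss1 knockdown and control groups. Gzma runs between 0 and 2080 reads, while Klrk1 has at least 57 reads in every library.

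Klrk1, the receptor gene, had the steadiest level of the 8 genes tested. It lies on chromosome 6, 129610323 to 129623864, minus strand, close to Klrd1, and had 57, 414, 277 and 673 reads in Mertk KO and 2333, 442 and 1506 reads in Ptdss1 knockdown, against 799, 1648 and 1322 reads in control. Its log2 level was 6.40, 8.41, 7.82 and 9.08 in Mertk KO and 10.98, 8.70 and 9.85 in Ptdss1 knockdown, against 9.35, 10.75 and 9.92 in control. Each Mertk KO library was below each control library, and Ptdss1 knockdown library 2 was the one library outside Mertk KO that lay inside the Mertk KO range.

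The mean log2 level of Klrk1 was 7.93 ± 1.14 in Mertk KO (SD, n = 4), 9.85 ± 1.14 in Ptdss1 knockdown (SD, n = 3) and 10.01 ± 0.71 in control (SD, n = 3). In CPM it was 18.3 ± 11.0 in Mertk KO, 61.9 ± 36.0 in Ptdss1 knockdown and 69.2 ± 38.3 in control. The log2 fold change of Mertk KO against control was -2.08 (SE 0.77, 95% interval -3.69 to -0.47, 4 of 4 libraries lower than every control library). It did not pass the threshold of 0.05 over all genes (limma, unadjusted p = 0.0143, adjusted p = 1), and the exact two-sided permutation test gave p = 0.0571, where the smallest p it can give is 1 in 35. Without control library 2 and Ptdss1 knockdown library 1 the fold change was -1.71. Mertk KO against Ptdss1 knockdown gave -1.92 (SE 0.77, limma, unadjusted p = 0.0222, adjusted p = 0.805) and an exact permutation p of 0.114. That difference was -1.35 without Ptdss1 knockdown library 1 and -2.49 without Ptdss1 knockdown library 2. Ptdss1 knockdown against control gave -0.16 (SE 0.82, limma adjusted p = 0.986), with a 95% interval of -1.88 to 1.56 that leaves room for a difference of either sign.

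**Figure D2:**
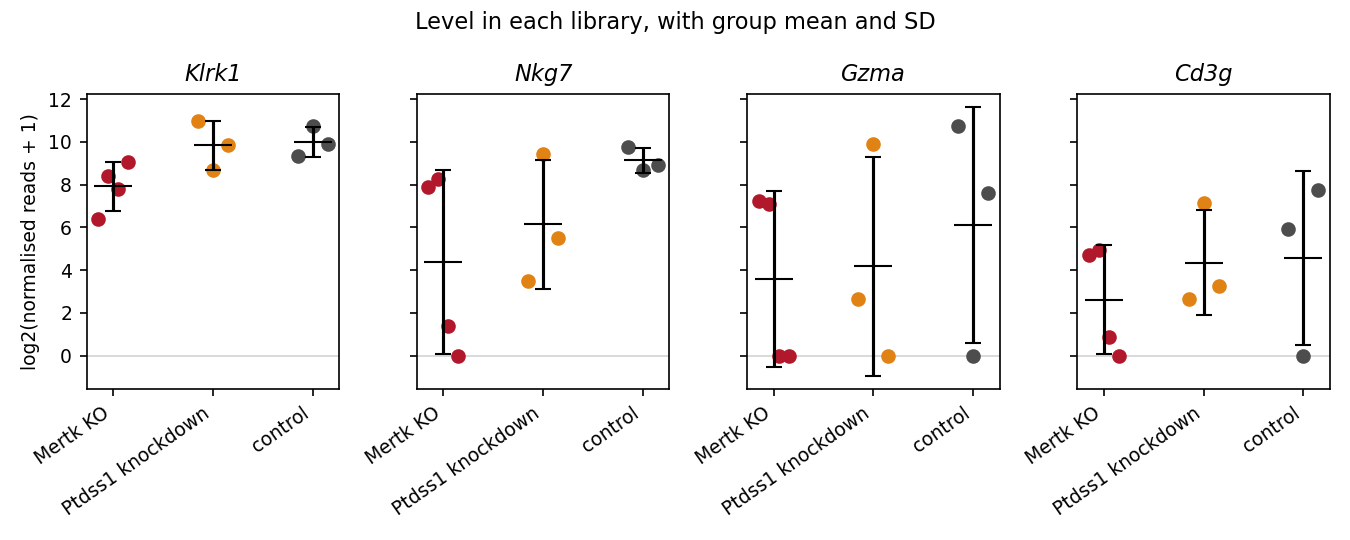
Level of Klrk1, Nkg7, Gzma and Cd3g in each library as log2(normalised reads + 1), by group. Points are libraries, the horizontal line is the group mean and the bars are 1 SD. Mertk KO libraries lie below all control libraries for Klrk1 and Nkg7, and the groups overlap for Gzma and Cd3g.

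The other receptor genes were patchy. Klrd1 (chromosome 6, 129591782 to 129598775, plus strand) had 0, 73, 821 and 0 reads in Mertk KO and 0, 180 and 8 reads in Ptdss1 knockdown, against 39, 27 and 86 reads in control. The highest value of all was in Mertk KO library 3, which had 2 reads of Nkg7, 1 of Gzmb, 1 of Cd3g and none of Gzma. The control libraries lay close together, between 4.87 and 6.00 on the log2 scale, inside the span of both other groups. The log2 fold change was -1.47 (SE 2.34, limma adjusted p = 1) in Mertk KO and -1.98 (SE 2.50, limma adjusted p = 0.876) in Ptdss1 knockdown, each against control, and the Mertk KO value was -3.33 without Mertk KO library 3, -0.20 without Mertk KO library 1 and -0.18 with a pseudocount of 8. The Ptdss1 knockdown value was -0.31 without Ptdss1 knockdown library 1 and -4.02 without Ptdss1 knockdown library 2.

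Il2rb (chromosome 15, 78479256 to 78495271, minus strand) had 23, 31, 0 and 0 reads in Mertk KO and 1, 169 and 13 reads in Ptdss1 knockdown, against 0, 0 and 44 reads in control. Ptdss1 knockdown library 2 stood highest, and 4 of the 10 libraries had none. Il2rg, the chain that joins Il2rb in the receptor and is also made by macrophages, had at least 3207 reads in every library. Ncr1 (chromosome 7, 4337724 to 4345164, plus strand) had 2 reads in Ptdss1 knockdown library 2 and 0 in the other 9 libraries, so that NKp46 transcripts were at or under the counting limit in all groups and no fold is given.

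The CD3 genes were read in some libraries of every group. Cd3g (chromosome 9, 44969572 to 44980431, minus strand) had 17, 36, 1 and 0 reads in Mertk KO and 6, 150 and 14 reads in Ptdss1 knockdown, against 74, 0 and 296 reads in control. Cd3e, nearby on the same chromosome (44998740 to 45009627, minus strand), had 15, 28, 0 and 1 reads in Mertk KO and 11, 97 and 7 reads in Ptdss1 knockdown, against 0, 0 and 68 reads in control. Both genes were highest in Ptdss1 knockdown library 2 and control library 3, while control library 1, the library with most Gzma and Nkg7, had 74 reads of Cd3g and none of Cd3e. An annotated antisense gene overlaps 135 exon bases of Cd3e, and as the library kit does not mark strand, its reads would be counted there.

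Against control, the log2 fold change of Cd3g was -1.95 (SE 2.11, limma adjusted p = 1) in Mertk KO and -0.22 (SE 2.26, limma adjusted p = 0.995) in Ptdss1 knockdown. For Cd3e it was 0.60 (SE 1.94, limma adjusted p = 1) in Mertk KO and 2.22 (SE 2.07, limma adjusted p = 0.843) in Ptdss1 knockdown. Il2rb had 0.78 (SE 2.05, limma adjusted p = 1) and 2.11 (SE 2.19, limma adjusted p = 0.850). The Mertk KO value of Cd3g was -4.23 without control library 2 and -0.35 without control library 3. In Ptdss1 knockdown, leaving out Ptdss1 knockdown library 2 brought Cd3e to 1.01 and Il2rb to 0.35, and leaving out control library 3 brought them to 4.11 and 3.80. The direction of Cd3e and Il2rb in Mertk KO turned when control library 1 was left out, to -0.34 and -0.067, and that of Cd3g in Ptdss1 knockdown turned to 1.38 without control library 3.

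Counted over the set, 8 of the 10 genes had at least 10 reads in at least 3 libraries and entered the fit of 11564 genes. In Mertk KO against control, 0 of the 8 passed in either direction (limma, adjusted p below 0.05), as did 0.0173% of all genes tested. Klrk1 and Nkg7, 2 of the 8, were lower in Mertk KO with no overlap between the groups, against 2.62% of all genes, and the same 2 had an unadjusted p below 0.05. That p was reached by 2.06% of all genes, and by 0.917% of all genes with a lower level. None of the 8 was higher without overlap, against 3.0% of all genes. The log2 fold change was below 0 for 6 of the 8, where 49.06% of all genes were below 0, and its median was -2.01, where that of all genes was 0.016.

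In Ptdss1 knockdown against control, 0 of the 8 passed (limma, background 0.0%), 0 had an unadjusted p below 0.05, against 2.9% of all genes in either direction and 1.3% with a lower level, and 0 had groups without overlap, against 3.32% of all genes higher and 3.6% lower. Fold changes were below 0 for 5 of the 8, with a median of -0.19 where that of all genes was -0.053. In Mertk KO against Ptdss1 knockdown, 0 of the 8 passed (limma, background 0.0%), and Klrk1 was the 1 with an unadjusted p below 0.05, against 3.73% of all genes in either direction and 1.55% with a lower level. None of the 8 was without overlap, against 2.91% of all genes higher and 2.32% lower. Fold changes were below 0 for 7 of the 8, with a median of -1.67 where that of all genes was 0.11. These comparisons share libraries, and the genes are not replicates of each other.

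**Figure D3:**
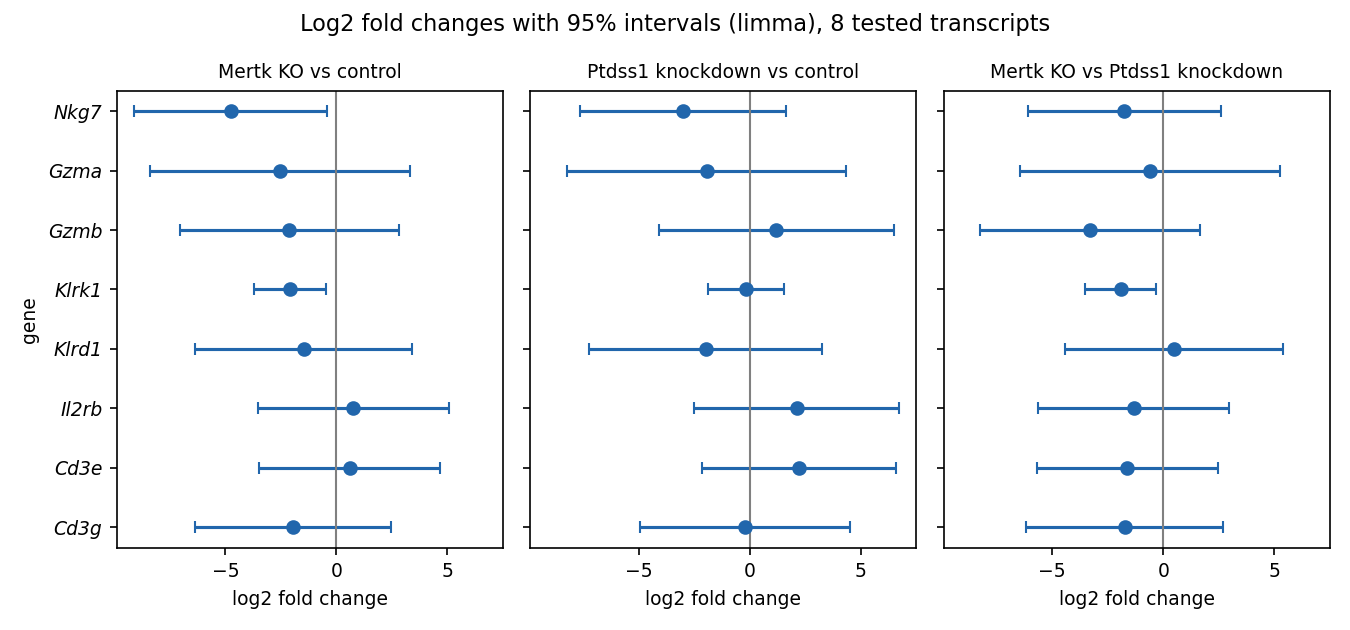
Log2 fold change of the 8 tested transcripts (rows) in each comparison (panels), with 95% intervals from limma. Only the intervals of Klrk1 in both Mertk KO comparisons and of Nkg7 in Mertk KO against control lie to one side of 0, and none passed after adjustment over all genes.

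The spread within groups set the size of these intervals. The residual SD on the log2 scale was 4.85 for Gzma, higher than in 99.97% of all genes tested, 3.71 for Gzmb (99.1%), 3.66 for Klrd1 (98.95%) and 3.26 for Nkg7 (95.8%), where the median gene had 1.64. Klrk1 was the exception, with a residual SD of 1.03, at 36.2% of the genes. Of the variance of Klrk1, 56.3% lay between the 3 groups, against 34.4% for Nkg7, 6.43% to 16.98% for the other 6 tested genes and 19.5% for the median gene.

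Summed over all 10 genes, the level was 57.4, 58.8, 57.4 and 31.6 CPM in the Mertk KO libraries and 102, 210 and 64.3 CPM in the Ptdss1 knockdown libraries, against 232, 141 and 116 CPM in control. All Mertk KO libraries were below all others in this sum. It hid different make-ups. Klrk1 gave 9.64%, 36.8%, 25.1% and 99.9% of the reads in Mertk KO and 97.7%, 13.2% and 90.8% in Ptdss1 knockdown, against 17.4%, 79.7% and 46.9% in control. Without Klrk1 the sum was 51.9, 37.1, 42.9 and 0.0469 CPM in Mertk KO and 2.30, 182 and 5.93 CPM in Ptdss1 knockdown, against 192, 28.8 and 61.7 CPM in control, and the groups overlapped. In Mertk KO library 4 and Ptdss1 knockdown library 1, Klrk1 at 673 and 2333 reads thus stood almost alone. The cells that gave the Klrk1 reads are not known.

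**Figure D4:**
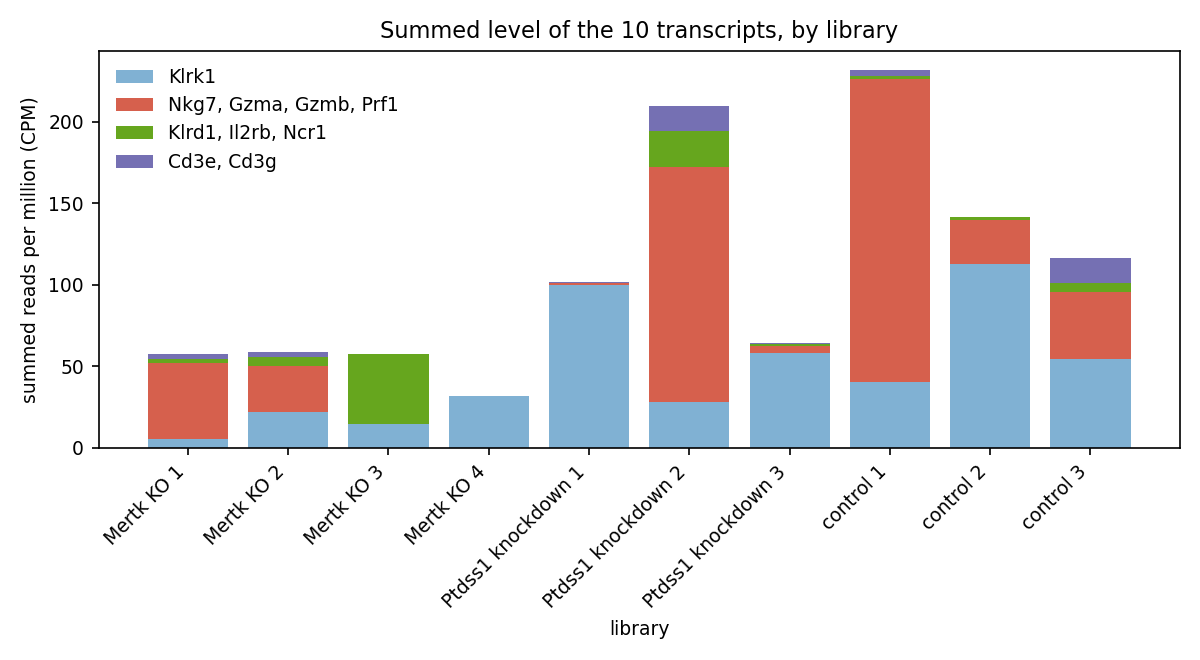
Summed level of the 10 transcripts in each library in CPM, split into Klrk1, the granule genes Nkg7, Gzma, Gzmb and Prf1, the receptor genes Klrd1, Il2rb and Ncr1, and the CD3 genes. The sum is 31.6 to 58.8 CPM in Mertk KO, 64.3 to 210 CPM in Ptdss1 knockdown and 116 to 232 CPM in control, and its make-up differs between libraries of 1 group.

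In reads per length of exon (RPKM), which set the level of a gene against its length, the median over the 10 libraries was highest for Nkg7 at 19.2 (range 0 to 59.8). Klrk1 followed at 5.01 (0.771 to 15.7), Gzma at 4.44 (0 to 104), Klrd1 at 1.49 (0 to 33.4), Gzmb at 0.765 (0 to 21.6) and Cd3g at 0.336 (0 to 3.73). Cd3e, Il2rb and Prf1 had medians of 0.0907, 0.0637 and 0.0184, and that of Ncr1 was 0. The ranges of neighbours in this order overlapped throughout, so the order of any 2 neighbours does not exceed their spread over libraries.

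Across the 10 libraries, which each give 1 point and share their depth and number of detected genes among all genes, 6 of the 8 tested transcripts moved together, and Klrd1 and Klrk1 did not move with them. Among the 7 without Klrk1, Pearson's r was positive for 20 of the 21 pairs among the 7, with a median of 0.56 and a range of -0.04 to 0.94. The pairs with Klrd1 made up the low end, at -0.04 to 0.28. The closest pair was Il2rb with Cd3e, at 0.94, followed by Gzma with Cd3g, at 0.89. Klrk1 had r between -0.36 and 0.016 with the other 7, positive for 1 of them. Set against the mean of the other tested genes, Cd3g had r = 0.94, Gzma 0.83, Nkg7 0.75, Il2rb 0.71, Gzmb 0.67 and Cd3e 0.65, while Klrd1 had 0.17 and Klrk1 -0.25. For genes outside the set, the median r with the mean of the 8 was 0.13. All of these are descriptions over 10 libraries.

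Other lymphocyte genes were read in the same libraries. The 14 tested of 23 T cell markers had a mean log2 level whose r with the mean of the 8 transcripts was 0.90 (Spearman's rho 0.94), and 0.80 without the 2 libraries farthest out, Ptdss1 knockdown 2 and control 3. For the 7 tested of 17 NK and innate lymphocyte markers r was 0.77, and for the macrophage markers it was -0.46. The 4 tested of 8 ILC2 markers, some of which T cells also use, had r = 0.84, or 0.92 without the 2 libraries farthest out, and the 4 tested fibroblast markers had 0.073, or 0.71 without 2. Klrk1 alone had r = -0.26 with the T cell markers and -0.37 with the NK markers, and -0.66 and -0.12 without the 2 libraries farthest out on each. How many genes reached 10 reads in a library moved with the 8 transcripts at r = 0.49, or 0.57 without control library 2 and Ptdss1 knockdown library 1, and total reads at -0.17. Klrk1 alone had r = -0.45 with that number of genes, or 0.40 without the same 2 libraries. With total reads Klrk1 had r = 0.59, or 0.19 without Mertk KO library 1 and Ptdss1 knockdown library 3. The part of either measure in the results above was not tested.

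**Figure D5:**
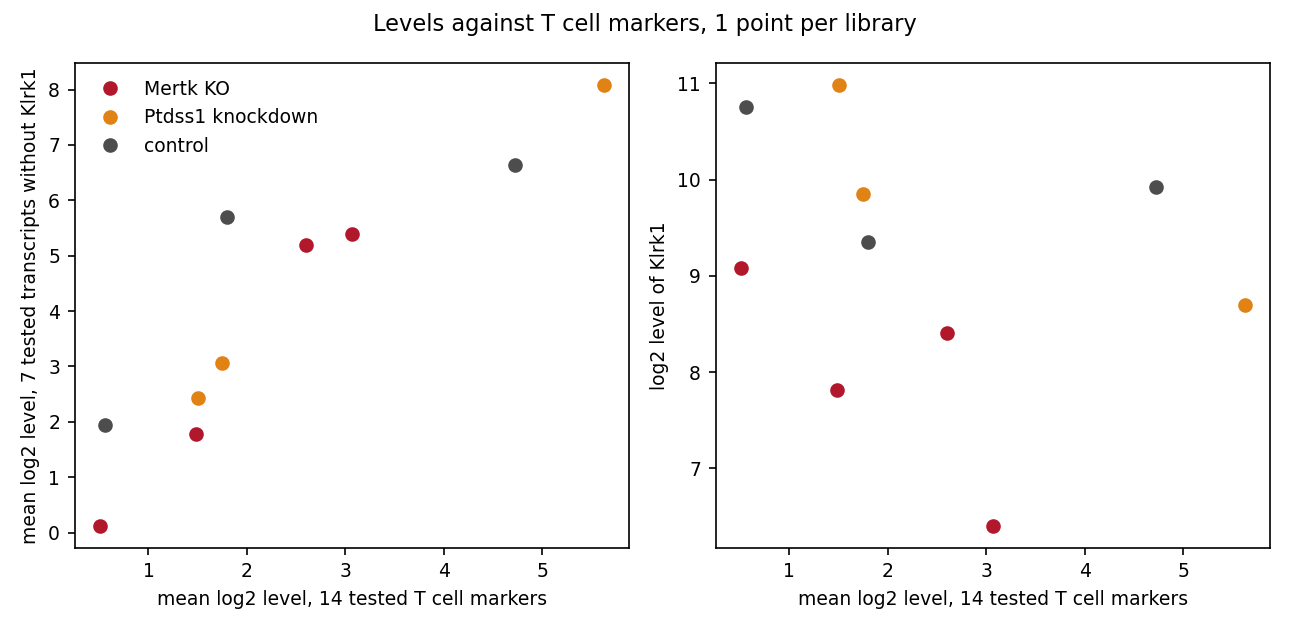
Mean log2 level of the 7 tested transcripts without Klrk1 (left) and log2 level of Klrk1 (right) against the mean log2 level of 14 tested T cell markers, 1 point per library, coloured by group. The left points climb together (r = 0.90), and the right points do not (r = -0.26).

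The summed level of the 23 T cell markers was 1.17 to 20.0 CPM in Mertk KO and 3.63 to 99.6 CPM in Ptdss1 knockdown, against 2.94 to 35.4 CPM in control. That of the 17 NK and innate lymphocyte markers was 22.8 to 51.0 CPM in Mertk KO and 15.4 to 114 CPM in Ptdss1 knockdown, against 67.3 to 130 CPM in control, with between 1 and 9 of the 17 at 10 reads or more. Its largest part was Sh2d1b1 in every library except Mertk KO library 1, where Il18rap had 147 reads. Sh2d1b1 encodes the signalling adaptor EAT-2. It had 113, 603, 342 and 308 reads in Mertk KO and 352, 1049 and 2146 reads in Ptdss1 knockdown, against 2112, 575 and 1323 reads in control. Mertk KO library 4 had its 308 reads beside 0 of Nkg7, Gzma and Gzmb, so the cells that gave Sh2d1b1 reads are not known. Sh2d1b1 had a log2 fold change of -1.87 in Mertk KO against control (SE 0.72, limma, unadjusted p = 0.0180, adjusted p = 1). The other NK markers of highest mean log2 value, which is not per length, Il18rap, Txk and Klre1, had log2 fold changes of 1.21, 1.93 and -2.63 in that comparison, and the T cell markers Cd2, Cd3d, Cd27 and Cd28 had -1.06, 0.02, -0.78 and 2.51 (limma adjusted p = 1 for each). The transcription factors that define NK cells were nearly unread: Eomes had 7 reads in Mertk KO library 2 and 3 in control library 3, Tbx21 had 6 in control library 3, and both had 0 elsewhere.

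Libraries that carried the transcripts held other lymphocyte genes too, but such genes were not confined to them. Mertk KO library 4, with 0 reads for 8 of the 10 transcripts, had 225 reads of Il18rap, 44 of Txk and 112 of Cd79b. The libraries and genes singled out here were chosen after their values were seen. Ptdss1 knockdown library 2, with the most reads of Gzmb, Cd3e and Il2rb, had 178 reads of Icos and 244 of Foxp3, a factor of regulatory T cells, and also 119 reads of Cd79a, a B cell gene that had 0 reads in every other library. Control library 3 held 132 reads of Icos and 147 of Cd3d, together with 153 of Klre1 and none of Klra7. NK receptor genes were read in Ptdss1 knockdown library 2 as well, with 121 reads of Klra7, 54 of Klrb1c and 118 of Klre1, and control library 1, with the most Gzma, had 130, 106 and 94 reads of the same genes, beside 20 reads of Cd4 and 36 of Cd8b1. Control library 2, with 393 reads of Nkg7 and no granzyme reads, held 332 reads of Cd7 and 515 of Ctsw, a protease of cytotoxic lymphocytes, and Mertk KO library 3, with 821 reads of Klrd1, held 117 reads of Cd2, 185 of Cd28 and 90 of Cd7.

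Among the genes whose levels were most like the mean of the 8 transcripts were, by Pearson's r over the 10 libraries, Atad2 (0.97), Snrpf (0.97), Chtf18 (0.96), Tnk2 (0.95), Med28 (0.94), Cd4 (0.94), Rad51c (0.93), Rpsa (0.93), Etfb (0.92), Atp5g3 (0.92) and Pomp (0.91). Of these, Cd4, with 0 to 53 reads, encodes the coreceptor of T helper cells. In all, 19 of the 11556 other genes reached r of 0.9 and 238 reached 0.8.

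Of the partners of the receptors, the adaptors and Il2rg were read in every library, and Klrc1 and Cd247 were not. Tyrobp, the adaptor DAP12, had at least 20480 reads in each, and its log2 fold change was -0.14 in Mertk KO (SE 0.41, limma adjusted p = 1) and -0.49 in Ptdss1 knockdown (SE 0.44, limma adjusted p = 0.841), each against control. Hcst, the adaptor DAP10, had 743, 1113, 661 and 543 reads in Mertk KO and 18, 547 and 760 reads in Ptdss1 knockdown, against 413, 251 and 1810 reads in control, with overlapping groups. Of the 15 tested of 17 genes for receptor partners and signalling, 0 passed in any comparison (limma), with 10 higher and 5 lower in Mertk KO against control and a median of 0.13. Klrc1, which encodes the NKG2A partner of CD94, had 42 reads in Mertk KO library 2, 78 in Ptdss1 knockdown library 2, 102 in control library 3, 1 in Mertk KO library 3 and 0 elsewhere. Cd247, the CD3 zeta chain, had at most 17 reads and 0 in 5 libraries. Fcer1g, another adaptor, and the phosphatase gene Ptpn6, both made by macrophages too, had log2 fold changes of -0.10 and 0.52 in Mertk KO against control (limma adjusted p = 1 for each).

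Some ligands and cytokines that act on these cells were read at high level in every library, others in part of the libraries and others hardly at all. The chemokine genes Cxcl9, Cxcl16 and Cxcl10, whose products draw T and NK cells, had at least 10381, 11686 and 1417 reads in each library, and their log2 fold changes in Mertk KO against control were -0.56, -0.29 and 0.78 (limma adjusted p = 1 for each). By contrast, Il21 and the NKG2D ligand gene H60c had at most 2 reads in any library, and Il2 had at most 16. Il12a and Raet1e had 0 reads in 7 of the 10 libraries and at most 82 and 115 reads. Other NKG2D ligand genes were read more widely. Ulbp1 had at least 10 reads in 9 libraries, Raet1d in 7 and H60b in 3, with at most 534, 892 and 308 reads. H2-T23 had a log2 level of 12.69, 12.61, 12.83 and 13.25 in Mertk KO and 14.23, 13.18 and 13.69 in Ptdss1 knockdown, against 13.74, 13.90 and 13.13 in control. Its log2 fold change was -0.74 in Mertk KO against control (SE 0.39, limma adjusted p = 1) and -0.86 in Mertk KO against Ptdss1 knockdown (SE 0.39, limma, unadjusted p = 0.0401, adjusted p = 0.805). Il15, the cytokine that keeps NK cells alive, had 82, 157, 359 and 174 reads in Mertk KO and 2, 216 and 329 reads in Ptdss1 knockdown, against 597, 345 and 479 reads in control. Its 2 reads, and 1 read of its presenting receptor Il15ra, were in Ptdss1 knockdown library 1, the library with the fewest genes. Il18 had at least 231 reads in every library, and Ifng, the main cytokine of activated NK and T cells, had 34 and 20 reads in Mertk KO libraries 1 and 2, 10 reads in Ptdss1 knockdown library 2 and 0 elsewhere.

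Of the 13 lists of pathway genes and cell type markers, 0 genes passed in any comparison (limma). Against control, the median log2 fold change in Mertk KO was -0.27 for the 7 tested NK markers, -0.91 for the 14 tested T cell markers, 0.99 for the 9 tested granule and effector genes and -0.56 for the 11 tested ligands and cytokines. In Ptdss1 knockdown the same medians were -0.34, 0.60, 0.39 and 0.090. Of the 9 granule and effector genes, 8 were higher and 1, Ctsw, was lower in Mertk KO against control. Ctsw reads were 0, 5, 1 and 0 in Mertk KO and 3, 17 and 0 in Ptdss1 knockdown. In control they were 46, 515 and 10. The granule and effector list is led by Srgn, with at least 11923 reads in every library, and Lamp1, with at least 8998, which macrophages also make, and its next tested genes, Unc13d and Serpinb9, had 0.56 and 2.28 in Mertk KO against control (limma adjusted p = 1 for each). For the other cell types a sort could hold, medians over tested markers are given for Mertk KO and then Ptdss1 knockdown, each against control. They were 0.26 and -1.13 for 2 of 10 B cell markers and -0.86 and -0.87 for 4 of 8 ILC2 markers. Kit, the 1 tested of 9 mast cell and basophil markers, had 1.25 and 5.14. The medians were -1.40 and -0.81 for 4 of 8 plasmacytoid dendritic cell markers and 2.51 and 0.77 for 4 of 11 neutrophil markers. For 5 of 9 epithelial markers they were -0.18 and -0.88, and for 4 of 8 fibroblast markers 1.22 and -0.83. The epithelial median in Mertk KO joins 2 higher and 3 lower genes. Summed, the 9 epithelial markers gave 64.3 to 159 CPM in Mertk KO, above the 21.3 to 31.9 CPM in control. In Ptdss1 knockdown that sum was 0.256 to 58.9 CPM. Cdh1, among these markers, had a log2 fold change of 1.55 in Mertk KO against control (SE 1.25, limma, unadjusted p = 0.230). The Kit value rests on Ptdss1 knockdown library 1, the library of fewest genes, as Kit had 16, 38, 1 and 2 reads in Mertk KO and 3301, 122 and 6 reads in Ptdss1 knockdown, against 2, 0 and 17 reads in control. The other mast cell and basophil markers had at most 7 reads in any library, and Mcpt8, Fcer1a, Ms4a2 and Tpsb2 had 0 in all 10. Ptdss1 knockdown library 1 stood apart in other genes too. It had 6413, 6578 and 5617 reads of Csf3r, Jak3 and Stat5a, where no other library passed 1523, 1316 and 582. Of the neutrophil markers, S100a9, Ly6g and Camp had 0 reads in all 10 libraries. In Mertk KO against control, Csf3r, read in every library, had -0.26. S100a8, Mmp8 and Mmp9 had 3.37, 2.82 and 2.21, each with 0 reads in some libraries. The B cell median in Ptdss1 knockdown joins opposite values, -4.19 for Cd22 and 1.92 for Cd79b. The 12 macrophage markers had medians of -0.054 and -0.13. The part of these cell types in the values of the 10 transcripts was not tested.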

How the data were processed

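Each library's mRNA was copied with the SMART-Seq v4 kit, amplified by PCR and sequenced in single reads, per the labels' protocols, without molecular identifiers or strand. The submitters' processing notes name STAR, RSEM and mm10; neither versions nor the annotation or normalisation step were stated there. The authors deposited 1 table per library of log2 values with a decimal comma. Undoing log2(value + 1) leaves equal steps, which gave whole reads for 100% of values within 0.01 of a read, so the deposited values were read as log2 of reads over a size factor plus 1. CPM and depth come from these reads.

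Levels were tested with limma 3.58.1 in R 4.3.3 (trend, robust moderation) in 1 fit of all 10 libraries over 11564 genes with at least 10 reads in at least 3 libraries, two-sided, with Benjamini-Hochberg adjustment over all of them and a threshold of 0.05. Fold changes on this scale understate the change of low genes. The code was tested on simulated data with less spread between libraries than these data. That check does not measure which differences the fit can find here. Mean differences of single genes were also tested by exact permutation over libraries. Coordinates and exon lengths are from GENCODE M21 (GRCm38). Promoters are from RefSeq, where 8 of 10 genes matched.

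The members and the 13 lists were chosen with earlier results of these data known. The rule for genes named took the members, fixed partners and ligands, the 4 highest tested genes of each list, and the 12 genes most alike in pattern, of which 1 is not reported here; lists of other cell types are given by their medians, and genes outside the rule are given for defining markers and for values that stood out. The alternatives tried were other size factors, other filters, limma-voom, no robust moderation, only the compared groups, library weights, a pseudocount of 8, and leaving out libraries.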

Additional observations from a re-analysis of the deposited data

Results flagged for a closer look

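Among 11 sets of 4 Mertk KO values examined, 3 had 1 library far from the other libraries of the group by Dixon's criterion. Its usual chance rate of about 1 set in 20 holds for independent sets of normally distributed values. These sets hold values of 0, and the summed level contains the single genes, so that rate does not apply here. The log2 level of Gzmb was 8.33 in Mertk KO library 1, with the other 3 libraries at 0.86 or below. The summed level of the 10 transcripts was 31.6 CPM in Mertk KO library 4, against 57.4 to 58.8 CPM in the other 3. The log2 level of Prf1 was 0.86 in Mertk KO library 2 and 0 in the other 3, a difference of 1 read. Groups of 3 libraries were too small for this criterion.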

How the results depend on the processing

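Over 20 alternatives, 474 values of the 24 member results were recomputed: 441 kept their direction, 33 turned, and none passed (smallest adjusted p 0.104, Klrk1 in Mertk KO against Ptdss1 knockdown). Klrk1 and Nkg7 in Mertk KO against control kept their direction throughout. With library weights, Mertk KO against Ptdss1 knockdown turned to 0.42 for Cd3e, 3.39 for Gzma, -0.24 for Klrd1 and 0.46 for Nkg7, and Gzmb in Ptdss1 knockdown against control to -1.05. Without control library 2 and Ptdss1 knockdown library 1 together, Gzmb in that comparison turned to -0.20, Klrd1 in Mertk KO against Ptdss1 knockdown to -1.16, and Cd3e and Il2rb in Mertk KO against control to -0.34 and -0.067. Leaving out 1 library at a time gave ranges across 0 in Mertk KO against control for Cd3e (-0.34 to 2.49) and Il2rb (-0.11 to 2.46). In Ptdss1 knockdown against control they were -5.01 to 0.36 for Gzma, -1.12 to 3.11 for Gzmb, -0.73 to 0.41 for Klrk1 and -2.50 to 1.38 for Cd3g. In Mertk KO against Ptdss1 knockdown they were -2.68 to 2.26 for Gzma, -2.78 to 0.43 for Il2rb and -1.35 to 2.55 for Klrd1. The cause was not tested. The count over all genes in Mertk KO against control, 2, was 0 with upper-quartile factors, no filter or a filter of 50 reads, 1 without robust moderation, 25 with library weights and 0 to 4 leaving out 1 library. Library weights gave 2 in Ptdss1 knockdown against control and 35 in Mertk KO against Ptdss1 knockdown, where leaving out both libraries of few genes gave 1, against 0 for each. Upper-quartile factors shifted the median of all genes by -0.20 in Ptdss1 knockdown against control and by 0.24 in Mertk KO against Ptdss1 knockdown. No paired analysis was possible because the labels do not link a library of any group to a library of another. Genes under 10 reads are limited by depth.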
